A study of Mus musculus with 24 samples.

Results

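In dispersed mouse islet cells exposed to palmitate, transcripts of most laminin chains and many integrin subunits were less abundant than with the carrier alone. The genes followed here were 30 integrin and laminin subunits, taken by their symbol from a table of 41549 genes. They comprised 13 integrin α subunits, 7 integrin β subunits and 10 laminin chains. Several leukocyte integrins were left outside the set. Enough counts for a test were present for 28 of the 30, and Itgb7 and Lamc3 fell below the filter. No threshold on a measured value set the choice of symbols. They were chosen with earlier results of these data known, so the counts of members are no independent evidence of their direction.

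Integrins are receptors built from an α and a β subunit that hold cells to the surrounding matrix and pass signals across the membrane. Laminins are large trimers of an α, a β and a γ chain, and they form the sheet of the basement membrane on which collagen IV, nidogens and perlecan assemble. In the mouse islet, the basement membrane lies mainly along the capillaries, and laminins containing the α4 or α5 chain are known to reach β-cells through receptors that include integrin α6β1. The α subunit sets most of the ligand preference: α3, α6 and α7 bind laminin, α1, α2, α10 and α11 bind collagen, and αv, α5, α8 and αIIb recognise the RGD motif of fibronectin, vitronectin or fibrinogen.

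Islets came from wild-type C57BL/6NRj mice of both sexes, aged 12 to 14 weeks, and every replicate was a preparation from a different organism, with all groups of a replicate taken from the same animal as the study describes it. Dispersed cells were transfected with 50 pmol of a locked nucleic acid antisense oligonucleotide (ASO), either a control (Ctr) or one against the tRNA-derived fragment 5′tRF-Glu(CTC) (αGlu), and then received 0.5 mM palmitate complexed to BSA (PA) or 0.75% BSA without palmitate (BSA). Each of the 4 combinations (Ctr or αGlu, with BSA or PA) held 6 libraries, 3 in each of 2 batches, so 24 in all. All cells were therefore transfected with an oligonucleotide, and no untransfected or freshly isolated islets were compared. An exposure of 48 h is stated for other assays of the study on transfected mouse islet cells, not for these libraries. The αGlu oligonucleotide and its target are shown because they define the αGlu groups, with the target bases that pair with the oligonucleotide in capitals.
ASO: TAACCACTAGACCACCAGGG
5′tRF-Glu(CTC) target: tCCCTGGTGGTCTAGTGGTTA

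The libraries held between 18214719 and 35001979 counts, with a median of 26701201.5. Levels within 1 gene are given as counts scaled to library size (CPM) scaled by the trimmed mean of M-values, and levels between genes as TPM, which correct for transcript length as well. Differences were tested with edgeR's quasi-likelihood method in 1 fit over all 24 libraries with batch as a term, and a member was called at an adjusted p below 0.05 across the 15916 genes tested. The study's own rule, which asks for more than a 2-fold difference at an unadjusted p under 0.05, was counted beside it. That rule was applied to the estimates and p-values of this fit, so its counts and shares differ from those the study reported. The β-cell markers were abundant in every library, with a summed level of the 10 markers between 84080 and 152100 CPM. The cells were not sorted, and the libraries also held transcripts of other cell types: the summed markers of fibroblasts and mural cells ranged from 21.5 to 1294 CPM and those of acinar cells from 193 to 18330 CPM.

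In Ctr BSA cells, Itgb1, which encodes the β1 subunit shared by most matrix integrins, had the highest TPM of the 30 members. Its median was 226 TPM (lowest 152, highest 315, n = 6), and its lowest library lay above the highest library of any other member. Itgav (median 67.0 TPM) and Itga3 (48.8 TPM) followed, with ranges that overlapped each other. Itgb5, the vitronectin receptor's β5 subunit, was at 35.2 TPM, and Lamc1, the γ1 chain found in most laminins, came next at 19.9 TPM with a range below that of Itgb5. The next places were held by Itga6 (18.9 TPM), Lama5 (14.5 TPM), Itgb4 (13.4 TPM) and Itga5 (12.7 TPM), whose ranges all overlapped. At the other end, Itga8 and Itga11 had medians of 0.313 and 0.400 TPM, Itgb7 0.190 TPM and Lamc3 0.0272 TPM. Among the integrin β subunits, Itgb1 made up 71.8 to 81.1% of the summed TPM in Ctr BSA and 69.2 to 80.5% in Ctr PA. Among the integrin α subunits, Itgav held a median of 35.2% in Ctr BSA and 49.1% in Ctr PA, while Itga3 held 29.4% and 21.8%. These shares came from the deposited TPM and were not tested.

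With the control oligonucleotide, palmitate lowered 16 of the 28 tested members and raised 1, Itgav. Over all genes tested, 14.2% were called lower and 15.3% higher, and the median log2 fold change was 0.01, against -0.72 for the members. With the αGlu oligonucleotide, 18 members fell and none was called higher, where 14% of all genes were called lower and 14.3% higher. There the members' median log2 fold change was -0.76. The 0 called higher by edgeR with αGlu compares with 1 at an unadjusted p below 0.05, Itgav, and 0 in DESeq2. By the study's rule 11 members were lower in Ctr and 12 in αGlu and none was higher, against 5.02% of genes lower and 0.854% higher in Ctr, and 4.71% lower and 0.811% higher in αGlu. The 2 comparisons use separate libraries and share 1 fit. The plot of fold changes gives each member's estimate in both.

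**Figure D1:**
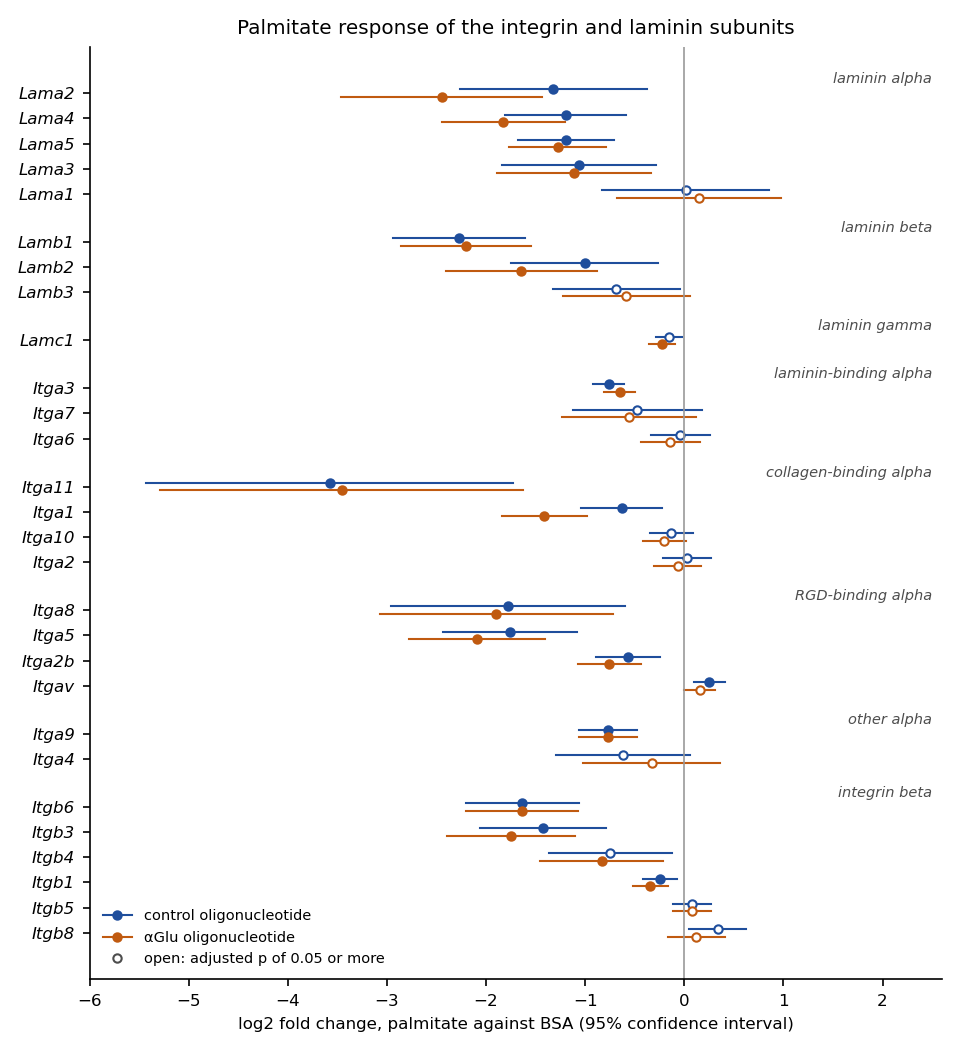
Log2 fold change of palmitate against BSA for the 28 tested members, grouped by role, with 95% confidence intervals. Blue is the control oligonucleotide and orange αGlu, filled points have an adjusted p below 0.05, and most points of the laminin chains lie left of 0 while Itgav, Itgb5 and Itgb8 lie right of it.

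Among the laminin chains, Lamb1 had the largest fold change in Ctr. Lamb1 encodes the β1 chain of most basement membrane laminins (chr12:31265234-31329644, plus strand, GRCm38). In Ctr BSA it ranged from 23.5 to 43.8 CPM (median 35.1) and in Ctr PA from 4.08 to 9.97 CPM (median 7.26). The groups did not overlap, and the fold change was -2.27 on the log2 scale (SE 0.32, adjusted p = 2.31e-05), a 4.83-fold lower level. In αGlu cells, Lamb1 ranged from 21.03 to 45.6 CPM in BSA and from 3.62 to 15.1 CPM in PA, again without overlap, with a log2 fold change of -2.20 (SE 0.31, adjusted p = 2.95e-05). Within batch 1 and batch 2, the Ctr fold changes were -2.53 and -2.04. Lamb1 was called lower in each of the 32 other fits of both comparisons.

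Lama5 and Lama4 encode the α5 and α4 chains of vascular and epithelial basement membranes, and both fell. Lama5 (chr2:180176373-180225859, minus strand) had a median of 69.4 CPM in Ctr BSA, from 29.7 to 147, and 33.4 CPM in Ctr PA, from 9.41 to 77.1. The overlap of these ranges went with the batch: in batch 1 Ctr BSA lay at 83.7 to 147 CPM and Ctr PA at 44.2 to 77.1 CPM, and in batch 2 the values were 29.7 to 55.1 and 9.41 to 22.6 CPM, so that neither batch overlapped. The log2 fold change was -1.20 (SE 0.23, adjusted p = 0.000643) in Ctr and -1.28 (SE 0.23, adjusted p = 0.000378) in αGlu. Without the batch term the adjusted p was 0.246 in Ctr and 0.225 in αGlu. Lama4 lay between 7.998 and 15.4 CPM in Ctr BSA (median 11.7) and between 3.35 and 7.23 CPM in Ctr PA (median 4.80), and the groups did not overlap. Its log2 fold change was -1.20 (SE 0.29, adjusted p = 0.00382), and in αGlu -1.82 (SE 0.30, adjusted p = 9.62e-05). In batch 2 alone, the Lama4 value in Ctr was -0.86 and did not pass the test (adjusted p = 0.132).

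The chains Lama2, Lama3 and Lamb2 also fell in both oligonucleotide conditions, with less certainty in Ctr. Lama2 encodes the α2 chain of muscle and nerve laminin. It ranged from 3.71 to 11.8 CPM in Ctr BSA and from 1.46 to 5.88 CPM in Ctr PA, where the highest PA libraries were those of batch 2, and the log2 fold change was -1.32 (SE 0.46, adjusted p = 0.0333). In αGlu cells Lama2 went from 2.554 to 8.50 CPM in BSA to 0.315 to 2.24 CPM in PA, without overlap, with a log2 fold change of -2.45 (SE 0.49, adjusted p = 0.000718). Within batch 1 and batch 2 the Ctr fold changes of Lama2 were -2.48 and -0.37, and batch 2 alone gave no call (adjusted p = 0.709). Lamb2, the synaptic and glomerular β2 chain, changed by -1.003 (SE 0.36, adjusted p = 0.0383) in Ctr and by -1.65 (SE 0.37, adjusted p = 0.00188) in αGlu. The Ctr values of Lamb2 within the batches were -1.46 and -0.58, and it was called in neither alone (adjusted p = 0.138 and 0.347). Lama3, the α3 chain of epithelial laminin-332, changed by -1.06 (SE 0.38, adjusted p = 0.0366) and -1.12 (SE 0.37, adjusted p = 0.0291). Leaving out single libraries ended the Ctr call of Lama2 for 6 (Ctr PA S3, S7 and S11, Ctr BSA S5, S9 and S21, adjusted p 0.0591 to 0.0824). It ended that of Lama3 for 6 (Ctr PA S3 and S11, Ctr BSA S5, S9, S13 and S17, adjusted p 0.0534 to 0.0776), and that of Lamb2 for 9 (Ctr BSA S1, S5, S9 and S21, Ctr PA S3, S7, S11, S15 and S23, adjusted p 0.0556 to 0.0864). The αGlu call of Lama3 was lost without any of 7 libraries (αGlu PA S4, S12, S16 and S24, αGlu BSA S6, S14 and S18, adjusted p 0.0508 to 0.0659).

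The remaining chains moved little or did not pass the test. Lamc1 was at 57.4 to 78.7 CPM in Ctr BSA and 48.1 to 67.3 CPM in Ctr PA, a log2 difference of -0.16 (SE 0.06, adjusted p = 0.0679). In αGlu it fell by 0.22 on the log2 scale (SE 0.06, adjusted p = 0.0110), a call that was absent without the batch term and in either batch alone (largest adjusted p = 0.289). Lamb3, the β3 chain of laminin-332, gave -0.69 (SE 0.31, adjusted p = 0.0983) in Ctr and -0.58 (SE 0.31, adjusted p = 0.165) in αGlu. Lama1, the α1 chain of early embryonic basement membranes, stood at 0.01 (95% CI -0.83 to 0.85) and 0.15 (-0.68 to 0.98), which leaves room for a change in either direction. Lamc3 had 10 counts in Ctr BSA and 1 count in Ctr PA over 6 libraries each, and 18 and 8 counts in the αGlu groups, so that no difference was detectable at this depth.

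**Figure D2:**
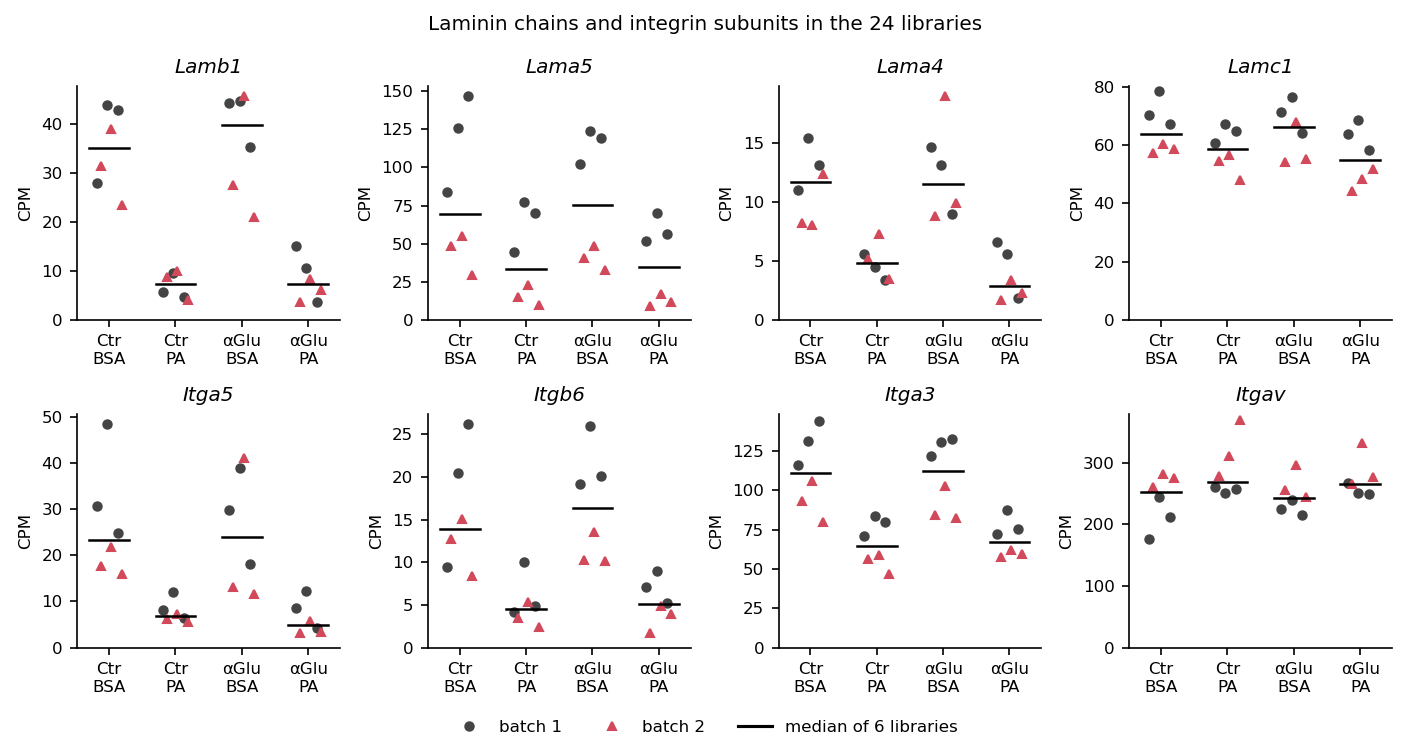
CPM of 4 laminin chains and 4 integrin subunits in every library, by group, with circles for batch 1, triangles for batch 2 and a bar at the median of 6. Lamb1 and Lama4 in PA lie below all BSA libraries of the same oligonucleotide, Lamc1 overlaps throughout, and the Itgav panel has its highest library, 369.4 CPM, in Ctr PA.

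The makeup of the laminin β chain transcripts differed between BSA and PA. In Ctr BSA libraries of batch 1, Lamb1 made up 26.9 to 28.8% of the 3 β chains' TPM and Lamb3 52.3 to 62.2%. In Ctr PA of that batch, Lamb1 made up 6.12 to 10.7% and Lamb3 73.03 to 88.8%. In batch 2 Lamb1 went from 46.9 to 58.8% in Ctr BSA to 32.7 to 39.9% in Ctr PA, and Lamb3 from 19.4 to 24.1% to 17.8 to 27.0%. The Lamb1 share was thus lower in PA in both batches, without overlap, and the Lamb3 share higher in batch 1 and overlapping in batch 2. Lama5 held more than 50% of the summed α chain TPM in all 24 libraries, with 54.9 to 83.2% of the 5 α chains in Ctr BSA and 51.7 to 89.6% in Ctr PA. The summed α chains had a median of 19.7 TPM in Ctr BSA and 12.7 TPM in Ctr PA, the β chains 19.7 and 12.5 TPM, and Lamc1 19.9 and 20.8 TPM. These values are descriptions of the deposited TPM with no test.

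**Figure D3:**
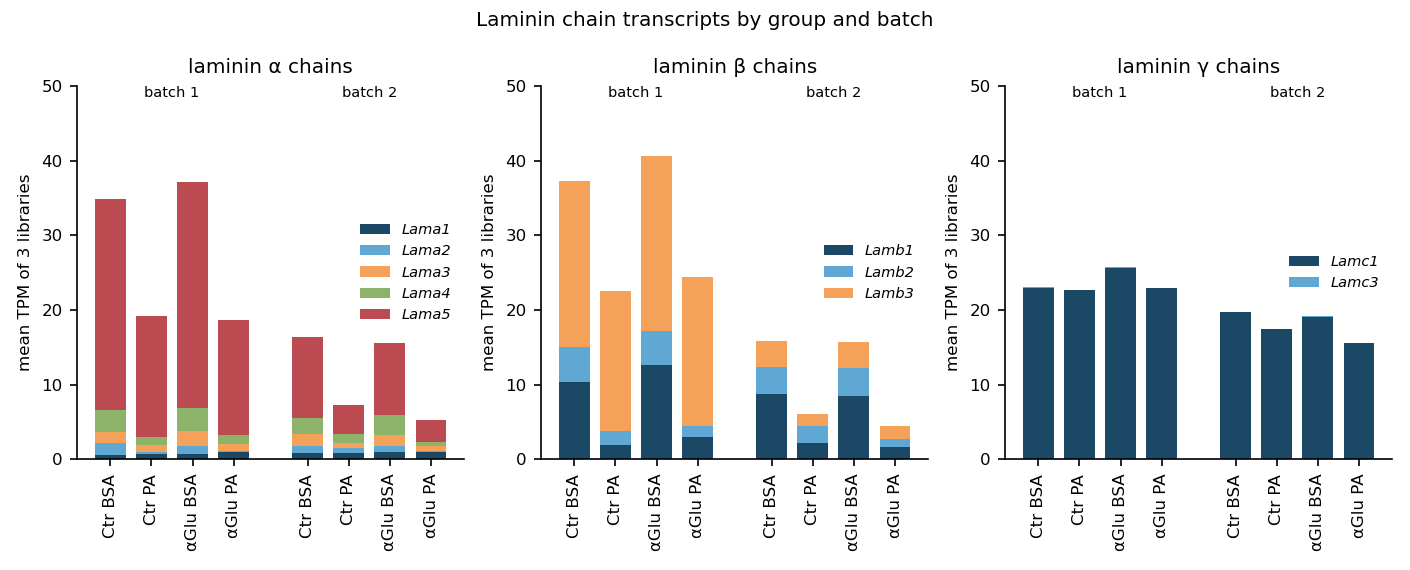
Mean TPM of the laminin α, β and γ chains in 3 libraries of each group and batch, as stacked bars from 0. In batch 1 the summed α chains averaged 34.8 TPM in Ctr BSA and 19.2 TPM in Ctr PA, and in batch 2 16.4 and 7.201 TPM, while the γ bars, nearly all Lamc1, stayed between 15.6 and 25.7 TPM.

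Of the laminin-binding integrin subunits, Itga3 fell and Itga6 and Itga7 were not called. Itga3 encodes α3, which pairs with β1 and binds laminin-332 and the α5 laminins (chr11:95044474-95076801, minus strand). Its values were 79.6 to 144 CPM in Ctr BSA (median 111) and 46.5 to 83.7 CPM in Ctr PA (median 64.7). Within batch 1 and batch 2 the fold changes were -0.74 and -0.79 in Ctr, and the pooled value was -0.76 (SE 0.08, adjusted p = 5.19e-08). In αGlu it was -0.65 (SE 0.08, adjusted p = 6.04e-07), and Itga3 kept its call in each of the 32 other fits of both comparisons. Itga6 differed by -0.04 (95% CI -0.34 to 0.25) in Ctr and -0.14 (-0.44 to 0.15) in αGlu. Itga7, the muscle and Schwann cell laminin receptor, gave -0.47 (-1.13 to 0.18) and -0.56 (-1.24 to 0.12). Itgb4, which pairs with α6 in the hemidesmosomes of epithelia, differed by -0.74 in Ctr (SE 0.30, adjusted p = 0.0639) and was called lower in αGlu by 0.83 on the log2 scale (SE 0.30, adjusted p = 0.0401). The αGlu call of Itgb4 was lost without any of 9 libraries (αGlu PA S4, S16, S20 and S24, αGlu BSA S6, S10, S14, S18 and S22, adjusted p 0.0571 to 0.0845). Its fold changes in αGlu were -0.36 in batch 1 and -1.43 in batch 2.

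Of the RGD-binding α subunits, Itga5 fell and Itgav rose. Itga5 encodes α5, the partner of β1 in the main fibronectin receptor (chr15:103344286-103366763, minus strand). It ranged from 15.95 to 48.3 CPM in Ctr BSA (median 23.3) and from 5.55 to 12.1 CPM in Ctr PA (median 6.84). The groups did not overlap, and the level was 3.39-fold lower, a log2 fold change of -1.76 (SE 0.32, adjusted p = 0.000382). In αGlu cells Itga5 changed by -2.09 (SE 0.33, adjusted p = 8.02e-05), from 11.7 to 41.1 CPM down to 3.21 to 12.3 CPM, with 1 PA library above the lowest BSA library. In batch 2 alone the Ctr value had an adjusted p of 0.0526. Itgav (chr2:83724397-83806916, plus strand) encodes αv, which pairs with β1, β3, β5, β6 or β8 and, with the latter pair, activates latent TGF-β. It ranged from 175 to 281 CPM in Ctr BSA and from 250 to 369.4 CPM in Ctr PA, with a log2 fold change of 0.25 (SE 0.08, adjusted p = 0.0121), so the groups overlapped and the increase was 1.19-fold. In αGlu the Itgav value was 0.15 (SE 0.08, adjusted p = 0.128). The Ctr call of Itgav was absent without the batch term and in either batch alone, where the fold changes were 0.27 and 0.23.

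Itga8 and Itga2b were lower under palmitate in both oligonucleotide conditions. Itga8 encodes the nephronectin receptor subunit of mesenchyme and smooth muscle. It was rare, with 131 counts over the 6 Ctr BSA libraries and 40 over the 6 Ctr PA libraries, and its log2 fold change was -1.78 (SE 0.57, adjusted p = 0.0204) in Ctr and -1.90 (SE 0.57, adjusted p = 0.0144) in αGlu. Leaving out Ctr BSA S17 gave -1.57 with an adjusted p of 0.0523 in Ctr, and leaving out αGlu BSA S6 gave -1.13 with an adjusted p of 0.140 in αGlu. Itga2b encodes αIIb, the fibrinogen receptor subunit known from platelets. It lay at 4.60 to 6.61 CPM in Ctr BSA and 2.01 to 5.42 CPM in Ctr PA, with log2 fold changes of -0.57 (SE 0.16, adjusted p = 0.00695) in Ctr and -0.76 (SE 0.15, adjusted p = 0.000577) in αGlu. The other platelet markers had few counts: Ppbp had 2 in all 24 libraries together, Gp1ba 11, Gp9 15, Pf4 93 and Gp1bb 195. Gp1bb, which alone of these passed the filter, gave -0.24 (SE 0.88, adjusted p = 0.865) in Ctr and 1.52 (SE 0.92, adjusted p = 0.228) in αGlu, and the part of platelets was not tested. In batch 1 alone the Ctr value of Itga2b was -0.29 and was not called (adjusted p = 0.310), and in batch 2 alone the αGlu value was -0.71 (adjusted p = 0.0880).

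Among the collagen-binding α subunits, Itga11 and Itga1 fell, and Itga2 and Itga10 did not pass the test. Itga11, the collagen I receptor of fibroblasts, had the largest fold change of all tested members in Ctr on few counts, 222 in the 6 Ctr BSA libraries and 19 in the 6 Ctr PA libraries, 3 of which had none. Its CPM ran from 0.495 to 3.79 in Ctr BSA and from 0 to 0.328 in Ctr PA, without overlap, with a log2 fold change of -3.58 (SE 0.90, adjusted p = 0.00409). In αGlu it was -3.45 (SE 0.89, adjusted p = 0.00499), with 1 BSA library and 3 PA libraries at 0. In batch 1 alone Itga11 was not called in Ctr (adjusted p = 0.107) or αGlu (adjusted p = 0.159). Itga1, the collagen IV receptor subunit of mural and glial cells, differed by -0.63 (SE 0.20, adjusted p = 0.0178) in Ctr and -1.41 (SE 0.21, adjusted p = 1.71e-05) in αGlu. The Ctr call of Itga1 ended without Ctr BSA S9 or S21 (adjusted p 0.0558 and 0.0605), and its Ctr fold changes were -1.10 in batch 1 and -0.22 in batch 2. In αGlu the 2 batches gave -1.11 and -1.73. Itga2 was at 17.2 CPM in Ctr BSA and 17.3 CPM in Ctr PA (medians), a log2 difference of 0.03 (95% CI -0.21 to 0.27), and Itga10 differed by -0.13 (-0.35 to 0.08).

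Of the β subunits, Itgb6, Itgb3 and Itgb1 fell in both oligonucleotide conditions. Itgb6, the epithelial partner of αv, had 8.38 to 26.2 CPM in Ctr BSA (median 13.9) and 2.36 to 10.02 CPM in Ctr PA (median 4.54). Its log2 fold change was -1.64 in Ctr (SE 0.27, adjusted p = 0.000125) and -1.64 in αGlu (SE 0.27, adjusted p = 0.000114), and it was called in each of the 32 other fits of both comparisons. Itgb3, the other αv partner and the partner of αIIb, went from 5.30 to 7.06 CPM in Ctr BSA to 0.609 to 3.83 CPM in Ctr PA, without overlap. That was a log2 fold change of -1.42 (SE 0.31, adjusted p = 0.00116) in Ctr, and in αGlu -1.75 (SE 0.31, adjusted p = 0.000172). In batch 1 alone the Ctr call of Itgb3 was lost (adjusted p = 0.0653). Itgb1 changed least of the members called lower in Ctr. It lay at 296 to 437 CPM in Ctr BSA and 261 to 372 CPM in Ctr PA, and fell by 0.24 on the log2 scale in Ctr (SE 0.08, adjusted p = 0.0296) and by 0.34 in αGlu (SE 0.08, adjusted p = 0.00324). Leaving out any of 7 libraries ended the Ctr call of Itgb1 (Ctr PA S3, S11 and S15, Ctr BSA S5, S9, S17 and S21, adjusted p 0.0514 to 0.0886). That call was also absent without the batch term, with only the compared groups and in either batch alone (largest adjusted p = 0.232). The αGlu call of Itgb1 was absent in batch 1 alone (adjusted p = 0.199).

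Itgb5 and Itgb8, which also pair with αv, were not called. Itgb5 had a log2 difference of 0.08 (95% CI -0.12 to 0.27) in Ctr and 0.08 (-0.11 to 0.27) in αGlu. Itgb8 gave 0.34 (SE 0.14, adjusted p = 0.0771) in Ctr, where Ctr BSA S1 was lowest at 12.4 CPM, and 0.12 (adjusted p = 0.565) in αGlu. Itgb7, a leukocyte partner of α4, had 29 to 48 counts over the 6 libraries of each group. Of the α subunits that bind neither collagen, laminin nor RGD as their main ligand, Itga9, a tenascin and osteopontin receptor, fell by 0.77 in both Ctr (SE 0.14, adjusted p = 0.000188) and αGlu (SE 0.14, adjusted p = 0.000194). Itga4, the VCAM-1 receptor subunit, gave -0.62 (adjusted p = 0.162) and -0.33 (adjusted p = 0.504). The exons of Itga4 overlap those of Cerkl on the other strand, and Cerkl had 366 to 1290 counts a library against 14 to 265 for Itga4. Whether the counting used strand is not given in the sources used here, so the values of Itga4 are uncertain.

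The start regions of 4 members that fell and of Itgav, the member that rose, are shown as examples, and the counts over all members follow them. RefSeq start sites on GRCm38.p6 were at hand for 21 of the 30 members, with 24 start regions. Each line holds 150 bases of genome, read 5′ to 3′ along the gene, that end before the start of the gene in both RefSeq and GENCODE. Capitals mark the GC box, written GGGCGG or CCGCCC on either strand, the motif of SP1-type factors.
Lamb1 chr12:31265084-31265233, plus strand: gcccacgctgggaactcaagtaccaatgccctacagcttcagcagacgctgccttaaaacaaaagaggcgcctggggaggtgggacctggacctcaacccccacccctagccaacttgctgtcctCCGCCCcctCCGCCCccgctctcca
Lama5 chr2:180225860-180226009, minus strand: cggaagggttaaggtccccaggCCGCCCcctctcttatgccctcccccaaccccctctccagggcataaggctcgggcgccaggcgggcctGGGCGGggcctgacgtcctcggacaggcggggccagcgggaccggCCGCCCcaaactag
Itga5 chr15:103366792-103366941, minus strand: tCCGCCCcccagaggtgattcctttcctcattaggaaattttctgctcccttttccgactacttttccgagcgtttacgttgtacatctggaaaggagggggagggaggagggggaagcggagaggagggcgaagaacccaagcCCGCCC
Itga3 chr11:95076802-95076951, minus strand: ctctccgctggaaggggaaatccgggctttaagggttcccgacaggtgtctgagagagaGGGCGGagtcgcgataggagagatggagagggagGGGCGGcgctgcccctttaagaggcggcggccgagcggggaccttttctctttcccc
Itgav chr2:83724247-83724396, plus strand: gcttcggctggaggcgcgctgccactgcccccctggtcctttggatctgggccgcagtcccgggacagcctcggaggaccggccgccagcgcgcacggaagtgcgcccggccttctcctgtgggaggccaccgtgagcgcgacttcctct
The windows of Lamb1, Itga5 and Itga3 each hold 2 GC boxes, that of Lama5 holds 3 and that of Itgav none, with a G+C content between 56.7 and 73.3%. In the 150 bases before the RefSeq starts, a GC box was found in 6 of the members' 24 regions and in 28.6% of the 32851 regions of all genes. Besides the 4 shown these were Itga4 and Itgb5, which were not called under palmitate. The regions of Itga1, Itga2b, Itga8, Itga9, Itga11, Itgb1, Itgb6, Lama2 and Lamb2, all called lower in Ctr, held none. A TEAD core motif, GGAATG or CATTCC, was found in 2 of the 24 (Itga10 and Itgb1) and in 7.59% of all. The AP-1 motif TGANTCA (4.24% of all) and the TATA box TATAAA or TTTATA (7.57% of all) were in none of the 24. A match of letters is a description of the sequence and not a site, and no match says only that these letters are not in the window.

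The other genes of the pathway that were listed with the members give the surroundings of these changes, in Ctr. All 14 tested partners of laminin in the basement membrane had a negative fold change and 12 were called lower, among them the collagen IV chains Col4a3 (-3.57, SE 0.30, adjusted p = 1.60e-08), Col4a5 (-2.01, SE 0.23) and Col4a4 (-3.39, SE 0.43). Of 19 RGD and other integrin ligands 11 were called lower and none higher, led by Ccn2 (-2.07, SE 0.23), Fn1, which encodes fibronectin (-2.91, SE 0.42), and Ccn1 (-1.85, SE 0.28). Of the 38 genes of the adhesion complex inside the cell, 25 were called lower and 1 higher, and the smallest p belonged to Tgfb1i1 (-1.51, SE 0.14), Tns1 (-2.44, SE 0.27) and Actn4 (-0.48, SE 0.06). The 14 other laminin receptors divided, with 4 lower and 2 higher, including Sdc3 (-0.53, SE 0.08), Bcam (-0.61, SE 0.11) and Sgcb (0.30, SE 0.07). In αGlu, 13 of the 14 basement membrane partners, 11 of the 19 ligands, 24 of the 38 adhesion complex genes and 4 of the 14 other receptors were called lower. The lists were chosen with earlier results of these libraries known and are no independent evidence of their direction. Their medians in Ctr were -1.65, -1.88, -0.31 and -0.12 on the log2 scale, beside 0.01 over all genes tested.

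Markers of other cell types moved with the same comparison. The summed fibroblast and mural markers ranged from 344 to 785 CPM in Ctr BSA and from 21.5 to 98.6 CPM in Ctr PA, and from 204 to 1294 and 24.6 to 201 CPM in αGlu BSA and αGlu PA. Of 11 tested markers of this list 9 were called lower in Ctr and 7 in αGlu. Col1a1, Col1a2 and Col3a1 are in both this list and that of the integrin ligands, and Spp1 is in both the ligand and the ductal list. Macrophage markers, 10 tested, had 6 called lower in Ctr and 1 in αGlu, with sums of 83.2 to 370 CPM in Ctr BSA and 85.7 to 129 CPM in Ctr PA. Most counts of the macrophage sum were of 1 gene, C1qa, with 54606 over all libraries against 12153 for Lyz2, the next. Acinar markers, 8 tested, had 5 lower in Ctr and 3 in αGlu, and ductal markers, 8 tested, 3 and 2. None of 12 endothelial or 8 Schwann and enteric glial markers was called in either comparison. Of the endothelial markers, 11 had a negative and 1 a positive fold change in Ctr, and 10 and 2 in αGlu. Their median was -0.58 on the log2 scale in both. Of the glial markers, 7 were negative and 1 positive in Ctr (median -0.60), and 6 and 2 in αGlu (median -1.32). Lum was at 0 counts in 10 of the 24 libraries, Cldn5 in 7, Foxd3 and Gfap in 5 each, and the other fibroblast, endothelial and glial markers in 2 at most. In bulk libraries, fewer cells of a type and less RNA per cell cannot be told apart, and the part of these markers in the members' changes was not tested.

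Between the oligonucleotides no member was called. In BSA, the smallest p belonged to Itga7, with 3.13 to 15.4 CPM in Ctr and 2.81 to 6.87 CPM in αGlu, a log2 difference of αGlu against Ctr of -0.87 (SE 0.32, adjusted p = 1.00). Itga4 (-0.66, SE 0.33) and Itga1 (-0.38, SE 0.20) followed with the same adjusted p. The 0 called by edgeR compares with 1 member at an unadjusted p below 0.05, 0 called by DESeq2 and 0 by the study's rule. Over all genes 0% were called by adjusted p in BSA and 0.754% by the study's rule. The summed glial markers were 10.8 to 99.0 CPM in Ctr BSA and 7.72 to 28.0 CPM in αGlu BSA, and 6 of the 8 markers were lower by the study's rule.

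Under PA, Itga1 came nearest to a call. Its level was 4.94 to 13.2 CPM in Ctr PA and 2.546 to 4.98 CPM in αGlu PA. In batch 1 the 3 Ctr PA libraries lay at 4.94 to 6.06 CPM and the αGlu PA libraries at 2.546 to 4.98 CPM, and in batch 2 at 11.04 to 13.2 and 3.71 to 4.12 CPM. The log2 difference was -1.16 (SE 0.21, adjusted p = 0.147). DESeq2 called it (-1.16, SE 0.21, adjusted p = 0.000128), as did the fits of batch 2 alone (-1.64, adjusted p = 0.0288), without αGlu PA S4 (-1.36, adjusted p = 0.00303) and without Ctr BSA S17 (-1.15, adjusted p = 0.0375). Lama2 differed by -1.58 (SE 0.50, adjusted p = 0.889), with 1.46 to 5.88 CPM in Ctr PA and 0.315 to 2.24 CPM in αGlu PA. Itga7 differed by -0.95 (SE 0.33, adjusted p = 0.995), with 3.62 to 9.41 against 1.54 to 4.98 CPM. These 3 members had an unadjusted p below 0.05, and 2 of them, Itga1 and Lama2, passed the study's rule, which took 0.905% of all genes. By adjusted p, 0% of all genes were called in PA.

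The glial markers moved in the same contrast. The summed 8 Schwann and enteric glial markers ranged from 14.3 to 72.8 CPM in Ctr PA and from 8.22 to 13.5 CPM in αGlu PA, without overlap, and 6 of the 8 were lower by the study's rule while none was called by adjusted p. The highest Itga7 levels of all 24 libraries, 15.4 and 15.3 CPM, were in Ctr BSA S9 and S21, whose glial sums, 77.7 and 99.0 CPM, were also the highest. Other libraries did not follow this order. Ctr PA S23 had a glial sum of 55.2 CPM with Itga7 at 3.62 CPM, and Ctr PA S11 a sum of 20.2 CPM with Itga7 at 9.41 CPM. The part of glial cells in these values was not tested.

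**Figure D4:**
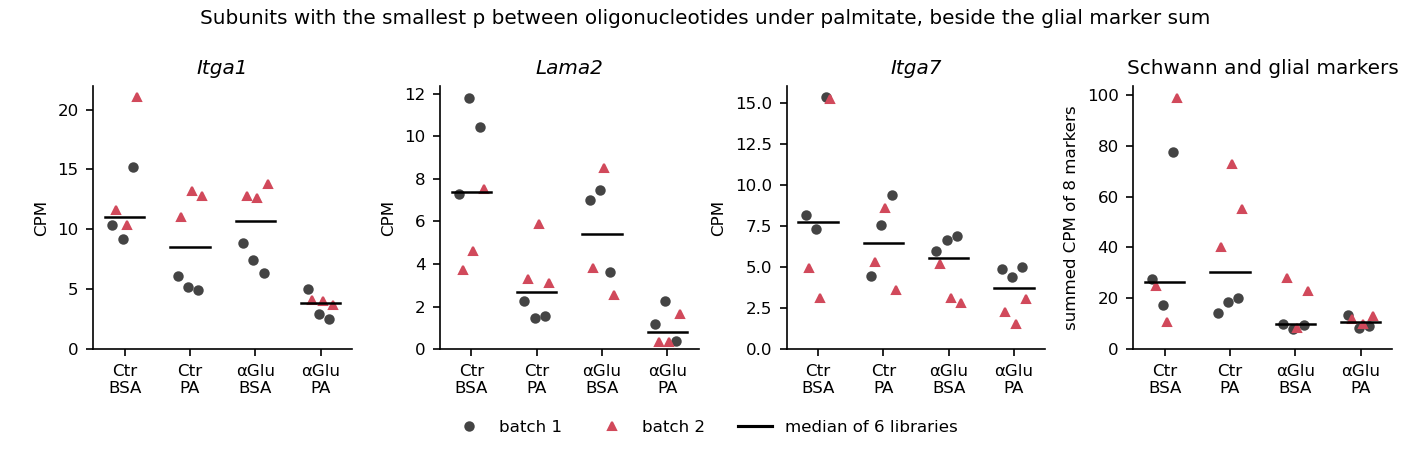
CPM of Itga1, Lama2 and Itga7 and the summed CPM of 8 Schwann and glial markers in each library, by group, with circles for batch 1, triangles for batch 2 and a bar at the median of 6. The αGlu PA libraries lie at 2.546 to 4.98 CPM for Itga1 and at 8.22 to 13.5 summed CPM for the glial markers, against 14.3 to 72.8 in Ctr PA.

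No member's palmitate response was called different between αGlu and Ctr. Itga1 had the smallest p, with a difference between responses of -0.78 (95% CI -1.37 to -0.19, SE 0.28, adjusted p = 1.00), followed by Lama2 (-1.13, SE 0.66) and Lama4 (-0.63, SE 0.42). The 0 called in edgeR compares with 1 member at an unadjusted p below 0.05, 0 in DESeq2 and 0 by the study's rule, and over all genes 0% were called by adjusted p and 0.584% by the study's rule. For the members with the deepest falls the intervals were wide: the difference was 0.07 for Lamb1 (95% CI -0.85 to 0.98) and -0.33 for Itga5 (-1.28 to 0.62). For Itga3 it was 0.11 (-0.11 to 0.33), so a change of its response by a log2 unit lies outside the interval.

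Between batches, unlike between oligonucleotides, members were called. Of the 28 members 12 were lower in batch 2 than in batch 1 and 4 were higher, where 25.3% of all genes were lower and 26% higher. By the study's rule 4 were lower and none higher, against 5.32% and 1.02% of all genes. The deepest differences belonged to Itgb4 and Lamb3. Itgb4 ranged from 55.1 to 145 CPM in the 12 libraries of batch 1 and from 4.51 to 22.7 CPM in those of batch 2, with a log2 difference of -3.07 (SE 0.22, adjusted p = 5.98e-10). Lamb3 lay between 26.2 and 67.5 CPM in batch 1 and between 1.47 and 10.7 CPM in batch 2, at -3.05 (SE 0.23, adjusted p = 9.17e-10). The libraries of the batches did not overlap for either gene. Lama3, which like Lamb3 encodes a laminin-332 chain, was not called. Its batch difference ran from -0.29 to -0.07 on the log2 scale over 28 other fits. Lama5 differed by -1.78 (SE 0.17, adjusted p = 2.31e-08), and Itga6, the α partner of β4, by -0.55 (SE 0.10, adjusted p = 9.32e-05). Itga11 (-1.65, adjusted p = 0.0263) lost its call without Ctr BSA S5 (adjusted p = 0.0823), and Itga7 (-0.63, adjusted p = 0.0257) without Ctr BSA S9 (adjusted p = 0.0552). Itgb6, Itga5, Itga2b, Itga3, Lamc1 and Itgb1 were lower by 0.20 to 0.85 on the log2 scale. The 4 higher in batch 2 were Itga4 (0.86), Itga1 (0.63), Itgb8 (0.46) and Itgav (0.28).

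Most exocrine markers were lower in batch 2. The ductal keratin Krt19 ranged from 83.7 to 215 CPM in batch 1 and from 3.94 to 32.9 CPM in batch 2 (-3.17, SE 0.23, adjusted p = 8.98e-10). Of 8 ductal markers, 6 were called lower in batch 2 and 1 higher. The summed ductal markers overlapped, at 413 to 623 CPM in batch 1 and 241 to 442 CPM in batch 2. All 8 acinar markers were lower, with sums of 2709 to 18330 CPM against 193 to 541 CPM. All 10 β-cell markers were higher. The part of exocrine cells in the members' batch differences was not tested, and what else set the batches apart cannot be told apart from them.

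**Figure D5:**
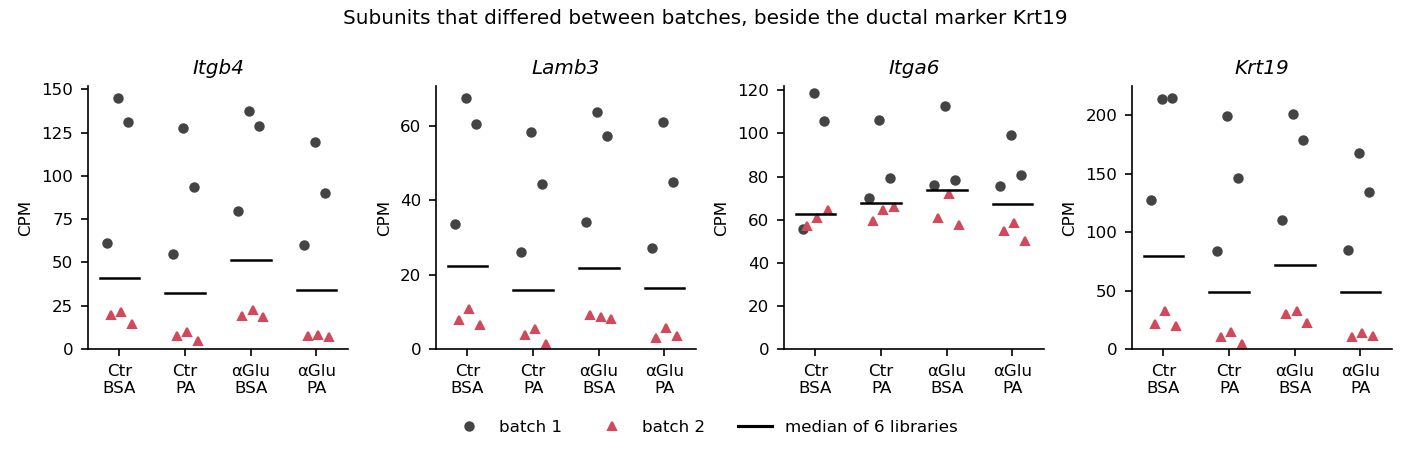
CPM of Itgb4, Lamb3, Itga6 and the ductal marker Krt19 in each library, by group, with circles for batch 1, triangles for batch 2 and a bar at the median of 6. Itgb4, Lamb3 and Krt19 show every batch 1 library above every batch 2 library, and the Itga6 values of the batches overlap.

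The palmitate response itself was not called different between batches for any member. Itgb4 came first, with a difference, batch 2 against batch 1, of -1.07 (95% CI -1.85 to -0.29, SE 0.37, adjusted p = 0.628). Lama5 (-0.66, SE 0.31) and Lamb3 (-0.88, SE 0.42) followed, both with an adjusted p of 0.85. The 0 called in edgeR compares with 1 member at an unadjusted p below 0.05 and 1 by the study's rule, Itgb4 in both, and 0 in DESeq2. Over all genes 0.0565% were called by adjusted p and 1.4% by the study's rule. All 16 members called lower in Ctr had a negative fold change within each batch. Libraries of both batches entered that call, so these signs are no independent evidence.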

How the data were processed

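RNA from 24 libraries of dispersed mouse islet cells was sequenced by the authors with a stranded mRNA kit and processed in the QIAGEN RNA-seq Analysis Portal v5.1 on GRCm38. For the aligner and the strand setting of the counting, the sources used here give nothing. The authors deposited raw counts per gene, with TPM, RPKM and CPM beside them. The deposited TPM and RPKM, normalised by the authors for length and depth, served only for levels and shares between genes, and the 24 CPM columns were not used. Levels within a gene are CPM computed here from the deposited counts with TMM factors.

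Groups and batches came from the labels. Counts of 15916 genes that passed edgeR's filterByExpr, with 99.95% of all counts, were fitted with edgeR 4.0.16 (R 4.3.3) by its quasi-likelihood method, robust, with group and batch as terms (common biological variation 15.4%), and p-values were adjusted by Benjamini-Hochberg over all genes tested. DESeq2 1.42.0, upper-quartile scaling, other filters, no batch term, only the compared groups, each batch alone and leaving out each library were tried as alternatives. The scripts were tested on simulated data. Every member was accounted for, with full values for those called under palmitate. Between oligonucleotides and between responses, members called by either rule and the 3 of smallest p were named, and in the other lists at most 3 genes of smallest p in Ctr. The members and the lists were chosen with earlier results of these data known. Libraries of a group came from different preparations, and p-values measure the spread between them. Groups of a replicate shared an animal per the study's methods, but the labels do not tie the libraries, so no block was fitted. At 18214719 to 35001979 counts a library, genes with few counts, such as Itga11 and Itga8, were measured with least precision. Start regions came from RefSeq on GRCm38.p6. The list of family genes outside the members is not reported here.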

Additional observations from a re-analysis of the deposited data

Results flagged for a closer look

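Of 112 groups of 6 libraries checked, one for each tested member and group, 8 held a library that stood apart from the rest of its group, with a gap to the nearest library past the critical value of Dixon's test. Chance flags about 1 in 20 groups.

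Itga11 stood at 3.79 CPM in Ctr BSA S5, with the next library at 1.01 CPM. The same library had the highest summed fibroblast and mural markers of its group, 785 CPM. In αGlu PA S4 Itga11 stood at 0.611 CPM, with the next at 0.0772 CPM in αGlu PA S8. The fibroblast and mural sum was 97.7 CPM in S4 and 201 CPM in S8. Itga8 was highest in αGlu BSA S6 at 2.38 CPM, next 0.986 CPM, and leaving out this library ended the αGlu call of Itga8. The fibroblast and mural sum of S6 was 627 CPM, below the 1294 CPM of αGlu BSA S18. Itga4 was highest in Ctr BSA S21 at 9.37 CPM, next 2.85 CPM. That library had the highest summed macrophage markers, 370 CPM, and the highest summed glial markers, 99.0 CPM. Lama1 was highest in αGlu BSA S18 at 7.23 CPM, next 3.14 CPM, the library with the highest summed fibroblast and mural markers, 1294 CPM. The part of these cell types was not tested.

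Itgb8 was lowest in Ctr BSA S1 at 12.4 CPM, with the next library at 24.5 CPM. Itgav was highest in αGlu PA S20 at 331 CPM, next 277 CPM. Itga10 was highest in Ctr PA S11 at 8.89 CPM, next 6.88 CPM.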

How the results depend on the processing

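No called member changed direction under any alternative. Uncalled values near 0 did: under palmitate in Ctr, Itga6 ran from -0.15 to 0.06, Itga2 from -0.21 to 0.27 and Lama1 from -0.12 to 0.24 on the log2 scale, and in αGlu Lama1 from -0.05 to 0.60. The 17 members called for palmitate in Ctr kept their call in 377 of 408 values that left out 1 library and in 106 of 134 from other fits, the 18 in αGlu in 415 of 432 and 126 of 142, and the 16 of the batch comparison in 382 of 384 and 62 of 64. The count of members called lower in Ctr, 16 in the main fit, was 10 without a batch term, 9 in batch 1 alone and 11 in batch 2 alone. It was 13 with no filter on low counts, 19 with DESeq2, and 11 to 17 when 1 library was left out. Some of these counts include members not called in the main fit. The 3 added by DESeq2 were Lamc1, Lamb3 and Itgb4. Batch 2 alone added Lamb3 and Itgb4 and lost Itga1, Itga5, Itgb1, Lama2, Lama3, Lama4 and Lamb2. The 1 called higher became 0 without a batch term, in batch 1 alone, in batch 2 alone and by the study's rule, and 1 to 2 when 1 library was left out, where Itgb8 was added without Ctr BSA S5 (0.41, adjusted p = 0.0386 in edgeR). Of the 18 lower in αGlu, 11 were called in batch 1 alone and 15 to 18 when 1 library was left out. Each batch alone holds 3 libraries a group, so fewer samples entered these fits. For the other settings that changed a count, the cause was not tested.

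Between oligonucleotides in PA, the count of 0 became 1, Itga1, with DESeq2 and in batch 2 alone, 2 by the study's rule, and 0 to 1 when 1 library was left out. The counts in BSA and for the difference between palmitate responses stayed at 0 when 1 library was left out. Between batches the study's rule gave 0 higher and 4 lower, and leaving out 1 library gave 4 to 5 and 11 to 12. For the palmitate response between batches it gave 1, and leaving out 1 library gave 0. Over all genes, without a batch term 1097 genes were called higher and 1190 lower in Ctr, against 2440 and 2257 with it, and 1040 and 1215 in αGlu, against 2276 and 2231. Batch 1 alone gave 1077 and 912 in Ctr and 842 and 835 in αGlu, and batch 2 alone 937 and 889, and 919 and 966.

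No paired analysis was possible because the labels give the groups no shared replicate numbers and do not say which libraries came from the same animal, although the study states that the groups of a replicate did. Differences between animals within a batch therefore stayed in the error of every test, and what a block would do to the members left uncalled was not tested. Lamc3 and Itgb7 failed the filter, and the fits that kept them did not call them under palmitate in Ctr (adjusted p = 0.183 for Lamc3 in 1 fit, and 0.614 to 0.797 for Itgb7 in 2).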
